A study of Mus musculus with 8 samples.

Results

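The HoxC cluster is a row of 9 homeobox genes on mouse chromosome 15, from Hoxc13 to Hoxc4, and its H3K79me2 peaks were described in cultured spermatogonial stem cells with and without an inhibitor of the enzyme that makes this mark. The members were chosen by name, with their RefSeq spans on GRCm38 (the assembly that mm10 also names), the sequence between them and 50 kb on each side. They are 9 of 21887 protein-coding genes in the RefSeq table on chromosomes 1 to 19, X and Y. H3K79me2, histone H3 that DOT1L has dimethylated at a lysine of its globular core, was mapped by chromatin immunoprecipitation and sequencing. The donor mice of all groups were of the strain B6.129S7-Gt(ROSA)26Sor/J, which carries a LacZ reporter in all tissues, and were 7 days old. They grew on SNL 76/7 feeder cells with GDNF (10 ng/mL) and FGF2 (0.5 ng/mL), and then for 7 days with 2 µM EPZ5676, an inhibitor of the methyltransferase DOT1L, or with vehicle. The labels name DMSO as vehicle in the protocol and ethanol in the short sample names. The labels name no step that removed the feeder cells, and in such bulk cultures fewer marked cells and less mark per cell cannot be told apart.

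Each condition had 2 H3K79me2 samples and 2 inputs, and 1 deposited peak list recorded under replicate 1. With 1 list per condition there is no replicate spread, and the conditions were not tested against each other. The control list held 47774 peaks and the EPZ5676 list 9182. Peak lists carry no read depth, which is therefore unknown here. The lowest −log10 p of a listed peak was 2.36 in the control and 4.03 after EPZ5676, so by p-value the control list holds weaker peaks. The lowest −log10 q, the other deposited significance value, was close in both, at 1.05 in the control and 1.04 after EPZ5676.

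Hox genes encode homeodomain transcription factors that give cells of the embryo their position along the body axis. They lie in 4 clusters, HoxA to HoxD, whose genes face the same way and are switched on in the order in which they lie, and members of like sequence in different clusters are called paralogues. Trithorax-type proteins keep Hox genes active and Polycomb proteins keep them silent. H3K79me2 lies over the transcribed part of active genes, mostly near the start, and in leukaemias with a rearranged Kmt2a (MLL) gene DOT1L is known for holding Hox genes active.

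Sequences of the cluster are shown for 2 reasons, because a microRNA gene of the miR-196 family sits between neighbouring control peaks, and because a control peak lies just past the one HoxC gene start that the RefSeq tables place. MicroRNAs pair with messenger RNAs through the seed, bases 2 to 8, which is in capitals. The mature sequences are from RefSeq, build GRCm38.p6. Mir196a-2 lies between Hoxc10 and Hoxc9 on the plus strand (chromosome 15, 102973350 to 102973434), and Mir615 lies inside the span of Hoxc5 (103014910 to 103015001).
mmu-miR-196a-5p: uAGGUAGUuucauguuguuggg
mmu-miR-196b-5p: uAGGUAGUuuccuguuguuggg
mmu-miR-196a-2-3p: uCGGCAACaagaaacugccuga
mmu-miR-615-5p: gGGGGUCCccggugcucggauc
mmu-miR-615-3p: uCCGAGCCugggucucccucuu
The first of these is made from Mir196a-2 in HoxC and, with the same sequence, from Mir196a-1 in HoxB (chromosome 11), while Mir196b lies in HoxA (chromosome 6), and all 3 genes share the seed AGGUAGU. The 2 arms of Mir615 share no seed with them.

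The bases before the start of the Hoxc4 transcript in the promoter table are set beside those of its paralogues in HoxB and HoxD, because the control list covers these 3 genes to very different extents. Each run is 250 bases on the plus strand and ends just before the start, and capitals mark matches, on either strand, to TATAAA (letters of a TATA box), GGGCGG (letters of a GC box), CCAAT (letters of a CCAAT box) and TGATNNAT (letters of a joint PBX and HOX motif).
Hoxc4 (chr15:103034145-103034394): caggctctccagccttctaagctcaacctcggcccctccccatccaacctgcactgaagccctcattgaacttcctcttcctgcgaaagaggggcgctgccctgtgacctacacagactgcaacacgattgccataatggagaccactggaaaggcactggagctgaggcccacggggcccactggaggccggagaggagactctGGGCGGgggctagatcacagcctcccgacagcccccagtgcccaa
Hoxb4 (chr11:96318017-96318266): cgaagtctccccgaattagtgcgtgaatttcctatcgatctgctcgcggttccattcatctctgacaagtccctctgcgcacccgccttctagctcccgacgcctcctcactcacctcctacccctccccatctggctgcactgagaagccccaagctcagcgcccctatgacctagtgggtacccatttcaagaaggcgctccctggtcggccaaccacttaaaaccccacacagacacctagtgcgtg
Hoxd4 (chr2:74721728-74721977): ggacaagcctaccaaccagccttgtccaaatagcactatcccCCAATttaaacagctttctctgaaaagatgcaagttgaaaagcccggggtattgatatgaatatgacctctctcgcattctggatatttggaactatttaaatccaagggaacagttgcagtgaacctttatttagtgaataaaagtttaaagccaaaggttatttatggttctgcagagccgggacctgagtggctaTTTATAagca
Control peaks covered 209 of these 250 bases at Hoxb4 and 0 at Hoxc4 and at Hoxd4. Over the 300 bases that the table gives (250 before and 50 after the start) the Hoxc4 promoter had 9 CpG dinucleotides, the Hoxb4 promoter 14 and the Hoxd4 promoter 4, and the median of all 32851 promoters was 7. GGGCGG occurred once at Hoxc4, 39 bases before the start, and is held by 35.7% of all promoters of that length. CCAAT occurred in the 300 bases of Hoxc4 and Hoxd4 and is held by 37.4%. TATAAA was found on the minus strand at Hoxd4, 4 bases before the start, and is held by 13.6%. TGATNNAT was in none of the 3 windows and is held by 8.85%. These matches describe the letters of the windows and not sites in use.

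Control H3K79me2 over HoxC came as 12 short, separate peaks inside the cluster, with none in either flank, and the EPZ5676 list had no peak there at all. The cluster runs from 102921131 to 103036856 on chromosome 15 (115.7 kb), and its control peaks covered 12159 bp, or 10.5% of it. In both 50 kb flanks together 0 of 100000 bp were covered, and the share was 5.64% over the whole window of 215.7 kb. Control peaks covered 7.00% of chromosome 15 from its first to its last RefSeq gene. At the mean density of that chromosome a stretch as long as the window would hold 3.81 control peaks, and it held 12. The nearest control peaks outside the cluster lay 164.6 kb below Hoxc13 and 121.5 kb above Hoxc4, the latter inside Smug1, a DNA repair gene.

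**Figure D1:**
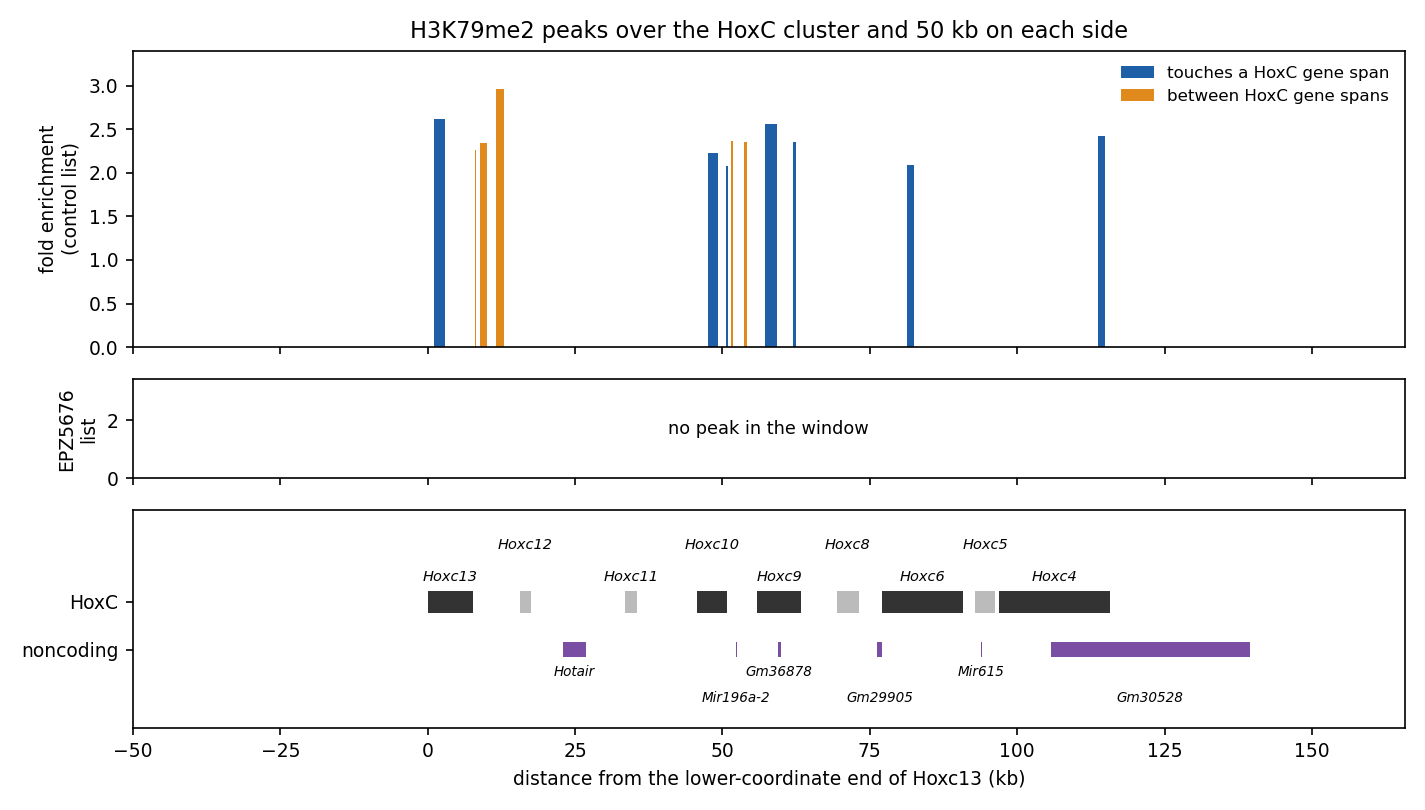
Map of the HoxC window, with the fold enrichment of each control peak (top, bar width is peak width), the EPZ5676 list (middle) and the RefSeq gene spans (bottom), against distance in kb from the lower-coordinate end of Hoxc13; dark HoxC spans have a control peak and light ones do not. The 12 control peaks lie within the cluster in 4 groups with long peak-free stretches between them, and the EPZ5676 list has none.

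Of the 9 HoxC genes, 5 had a control peak over at least 1 bp of their span, Hoxc4, Hoxc6, Hoxc9, Hoxc10 and Hoxc13. Over all protein-coding genes the share with a control peak was 52.7%, and over the 9118 genes within the members' range of lengths (1784 to 18760 bp) it was 49.4%, so 5 of 9 is near the background. The marked and unmarked members differed in length. All 5 marked genes were 5 kb or longer (5103 to 18760 bp), and all 4 unmarked ones were shorter (1784 to 3737 bp). Among all protein-coding genes in these length classes, 54.1% of the longer and 37.9% of the shorter ones had a control peak. The limit of 5 kb was chosen after the values were seen.

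No HoxC gene was covered over 50% or more of its span, whereas 15.9% of all protein-coding genes and 19.8% of those of the members' lengths were. The covered share of the 5 marked genes had a median of 24.4%, against 41.8% in the 4500 marked genes of the members' lengths. Hoxc10 had the highest share and Hoxc4, the longest member, the lowest. These lengths and shares describe 1 list.

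The peaks with the highest 2 values of −log10 p lay at the Hoxc13 end, whose genes act toward the tail end of the body axis. Hoxc13, known for its part in hair and nail formation (102921131 to 102928814), had 1 control peak of 1877 bp at 102922241 to 102924117. The peak covered 24.4% of the span, with a fold enrichment of 2.61 and a −log10 p of 5.18 (both the authors' values for that peak, as are all folds and p-values of peaks here). It began 1110 bp from the lower-coordinate end of the gene and stopped 4697 bp before the upper end. This was the strongest of the 7 peaks that touched a HoxC gene span, higher in fold than 75.5% of all control peaks.

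The stretch from Hoxc13 to Hoxc12 held more control peaks than any HoxC gene. It is 8011 bp long and held 3 peaks over 2857 bp, or 35.7%. The widest of them, 1442 bp at 102932682 to 102934123, had a fold of 2.97 and a −log10 p of 6.36, the highest of all 12 peaks in the cluster. It lay 3867 bp past the end of Hoxc13 and 2702 bp below Hoxc12, in no RefSeq gene of the table. The other 2 were 1226 bp (fold 2.34) and 189 bp (fold 2.26) wide. The peak that ranked first in the cluster was therefore not at a HoxC gene, and a count of marked genes does not show it.

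Next along the chromosome came 34.5 kb with no control peak (102934124 to 102968600), the longest such stretch inside the cluster. It held the whole of Hoxc12 (102936826 to 102938609) and Hoxc11 (102954526 to 102956701), a posterior gene that acts in the hindlimb and spinal cord. It also held Hotair, a long noncoding RNA gene known for its RNA's binding to the Polycomb complex (102944062 to 102947946). All 3 genes had 0 bp covered in both lists.

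Hoxc10 and Hoxc9 and the 5133 bp between them held 6 of the 12 peaks. Hoxc10, which acts in lumbar motor neurons and the hindlimb (102966796 to 102971898), had 1822 bp under a first peak, with fold 2.22 and −log10 p 3.55. A second peak of 189 bp, the narrowest width in the control list, straddled its upper end and put 92 bp inside the gene, with fold 2.07. Together they covered 1914 bp, or 37.5% of the span, the highest share of any HoxC gene, although both peaks were weaker than the one at Hoxc13.

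Hoxc9, known for setting the fate of thoracic motor neurons (102977032 to 102984444), had 2336 bp covered, or 31.5%. Its first peak, at 102978401 to 102980338, was the widest of the cluster (1938 bp), with fold 2.56 and −log10 p 4.62, and its second was 398 bp wide with fold 2.36. Between these 2 peaks lies Gm36878, a noncoding gene on the minus strand of 587 bp, with 0 bp covered. Its start was 725 bp from the first Hoxc9 peak.

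Mir196a-2, whose sequence stands above, had 0 of its 85 bp covered. It lay in a gap of 1914 bp between control peaks of 342 bp (fold 2.36) and 433 bp (fold 2.35), 431 bp from the nearer one. Its relatives were uncovered as well. Mir196a-1 in HoxB was 1321 bp from the nearest control peak and Mir196b in HoxA was 5606 bp from it. Of all 1228 microRNA genes in the table, 14.2% had a control peak.

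Toward the Hoxc4 end the peaks were fewer and farther apart. Hoxc8, which acts in the forelimb and thoracic region (102990539 to 102994275), had no peak, and lay in a gap of 18.9 kb. Hoxc6 (102998226 to 103011882), which acts in the thorax, had 1 peak of 1158 bp that covered 8.48% of its span. With a fold of 2.09 and a −log10 p of 2.75 it was weaker in fold than all other peaks of the cluster except the one at the end of Hoxc10, and 12.9% of all control peaks had a lower fold. Gm29905, a noncoding gene of 836 bp just below Hoxc6, was not covered.

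Hoxc5 (103014008 to 103017429), a gene of the neck and upper thorax, had no peak in either list, and neither had Mir615 inside it. Both lay in a gap of 31.2 kb that reached to the last peak, and Mir615 was 11263 bp from the nearest control peak.

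Hoxc4 (103018097 to 103036856), expressed from the neck down and also in lymphocytes, had 1 control peak of 1145 bp near its upper end, at 103034868 to 103036012. It covered 6.10% of the span, with fold 2.43 and −log10 p 4.01. The span of Hoxc4 is the union of several transcripts, and the start whose upstream sequence is shown above (base 103034395) lies near its upper end. The peak began 473 bp downstream of that start, which was itself not under a peak, as was true of all but 7.69% of the 32851 starts in the promoter table. The peak also lies in the span of Gm30528, a noncoding gene on the minus strand (103026807 to 103060555). ChIP signal has no strand, so it cannot be given to one of the 2 genes alone. Of the 6 noncoding RefSeq genes in the window, long noncoding and microRNA genes together, Gm30528 was the only one with a control peak. Over the whole table, 16.7% of the genes of its class (lncRNA) and 14.2% of microRNA genes had one. These shares are not matched for length, and Gm30528 (33749 bp) is far longer than the next longest of the 6, Hotair (3885 bp).

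**Figure D2:**
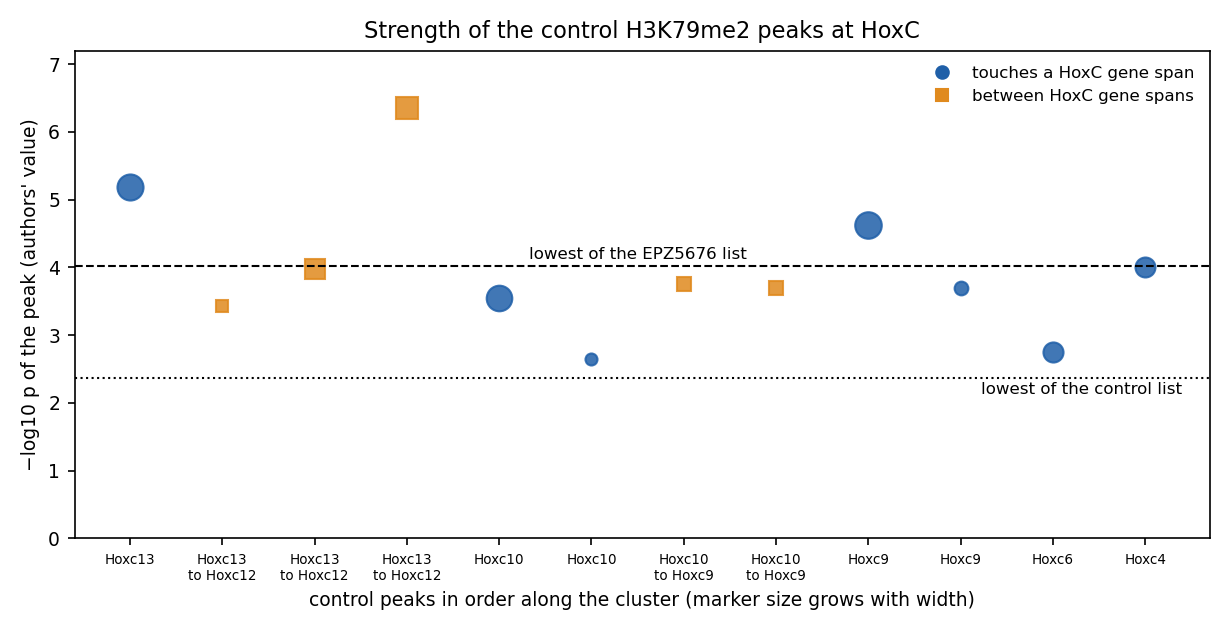
The −log10 p that the authors' list gives each of the 12 control peaks, in order from Hoxc13 to Hoxc4; marker size grows with peak width, circles touch a HoxC gene span and squares lie between spans. Peaks at Hoxc13, between Hoxc13 and Hoxc12 and at Hoxc9 stand above the dashed line, the lowest −log10 p of the EPZ5676 list (4.03), and the peak at Hoxc4 (4.01) lies just under it.

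Within genes, the control peaks began some way in. In all 5 marked HoxC genes the first covered base lay over 1000 bp from the lower-coordinate end, at 1110 bp in Hoxc13, 1369 bp in Hoxc9, 1805 bp in Hoxc10, 4263 bp in Hoxc6 and 16771 bp in Hoxc4. HoxC genes are transcribed from that end, as the plus strand of Hoxc4, Mir196a-2 and Mir615 in the tables also shows. In 3658 marked protein-coding genes of the members' lengths whose strand the table gives, the median distance was 373.5 bp and 19.1% had over 1000 bp. At Hoxc4 the distance depends on which transcript start is taken (473 bp from the start in the promoter table). Starts of the other 8 HoxC genes are not in that table and were not analysed here.

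HoxC gene spans held 69.3% of its covered bases. Over the 9 spans 8430 of 63736 bp were covered (13.2%), and over the 8 stretches between them 3729 of 51990 bp (7.17%). Only 2 of those 8 stretches, next to Hoxc13 and next to Hoxc10, had any coverage. Of the 12 peaks, 6 lay wholly inside a HoxC gene, 1 straddled the end of Hoxc10 and 5 touched no HoxC gene. The 7 peaks touching a gene had a median width of 1158 bp and a median fold of 2.36, and the 5 others had medians of 433 bp and 2.35.

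As a group, the HoxC peaks were ordinary for the control list in strength and never wide. Their median fold was 2.35 (2.07 to 2.97), against 2.30 over all control peaks, and their median width was 1152 bp (189 to 1938 bp), against 1102 bp. The widest HoxC peak was wider than 64.6% of control peaks. Only 3 of the 12 reached the lowest −log10 p of the EPZ5676 list, as did 17910 of the 47774 control peaks. With the control list held to that floor, Hoxc9 and Hoxc13 were the HoxC genes still marked, where 44.7% of all protein-coding genes were.

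Set beside its paralogues, each HoxC gene was covered less than its HoxB counterpart. In the 6 paralogue groups with a gene in both clusters the HoxB gene had the higher covered share in all 6. In group 13 it was 100% at Hoxb13 and 24.4% at Hoxc13, and in group 9 it was 80.5% at Hoxb9 and 31.5% at Hoxc9. In group 6 it was 99.8% at Hoxb6 and 8.48% at Hoxc6. In groups 4, 5 and 8 it was 100% at Hoxb4, 100% at Hoxb5 and 67.4% at Hoxb8, with 6.10% at Hoxc4 and 0% at Hoxc5 and Hoxc8. Genes of a cluster can share a peak, so these groups are not independent, and no test was made.

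Against HoxA the order was mixed. Of 7 shared groups HoxC had the higher share in 5 and HoxA in 1, namely group 11, with 18.7% at Hoxa11 and 0% at Hoxc11, and both had 0% in group 5. In group 10 Hoxc10 had 37.5% and Hoxa10 11.1%. HoxD had no control peak, so HoxC was higher in 4 of 7 shared groups and equal at 0% in 3. The Hox genes of other clusters nearest to the median share of the marked HoxC genes were Hoxb1 (18.7%), Hoxa11 (18.7%) and Hoxa10 (11.1%).

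**Figure D3:**
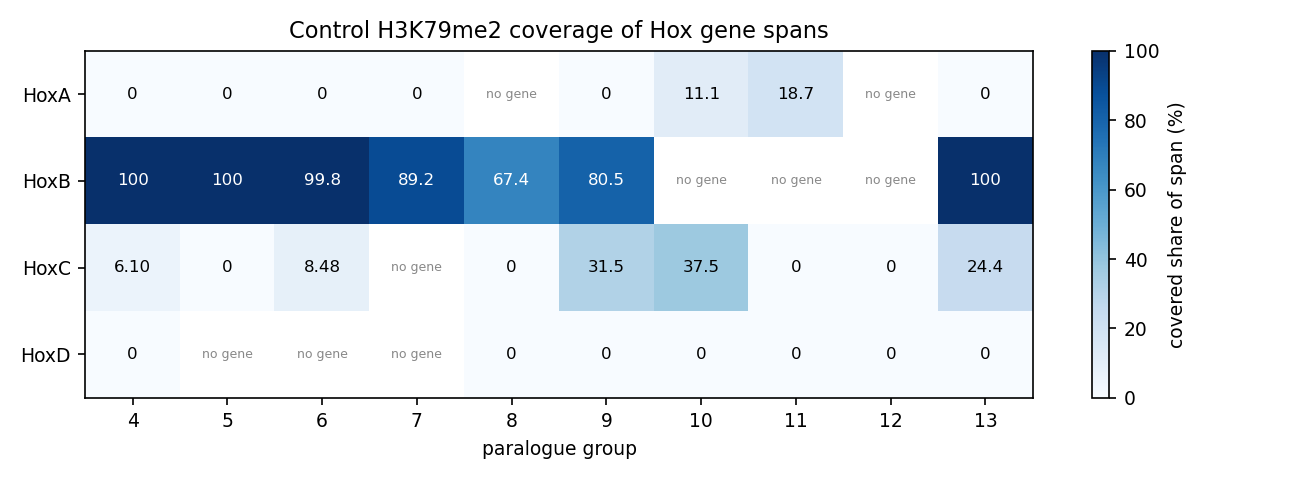
Share of each Hox gene span covered by control H3K79me2 peaks (%), with the 4 clusters as rows and the paralogue groups 4 to 13 as columns; white fields without a value have no gene. HoxC values run from 0% to 37.5% (Hoxc10), below the HoxB gene in each of the 6 groups that both clusters hold.

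HoxC and HoxB were close in the number of peaks per length and far apart in peak width. HoxC had 12 peaks, or 10.4 per 100 kb, and HoxB 22, or 12.6 per 100 kb (the HoxB cluster is 173.9 kb long). The median width was 1152 bp in HoxC and 3907 bp in HoxB, and the widest peaks were 1938 and 14809 bp. The covered share was 10.5% in HoxC and 52.5% in HoxB. The median fold was 2.35 in HoxC and 3.00 in HoxB. HoxA had 3 peaks over 2.82% of its length, with a highest fold of 2.23, and HoxD had none. Ordered by covered share, the clusters ran HoxB, HoxC, HoxA, HoxD. No spread over replicates is at hand to say which neighbours in that order differ.

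**Figure D4:**
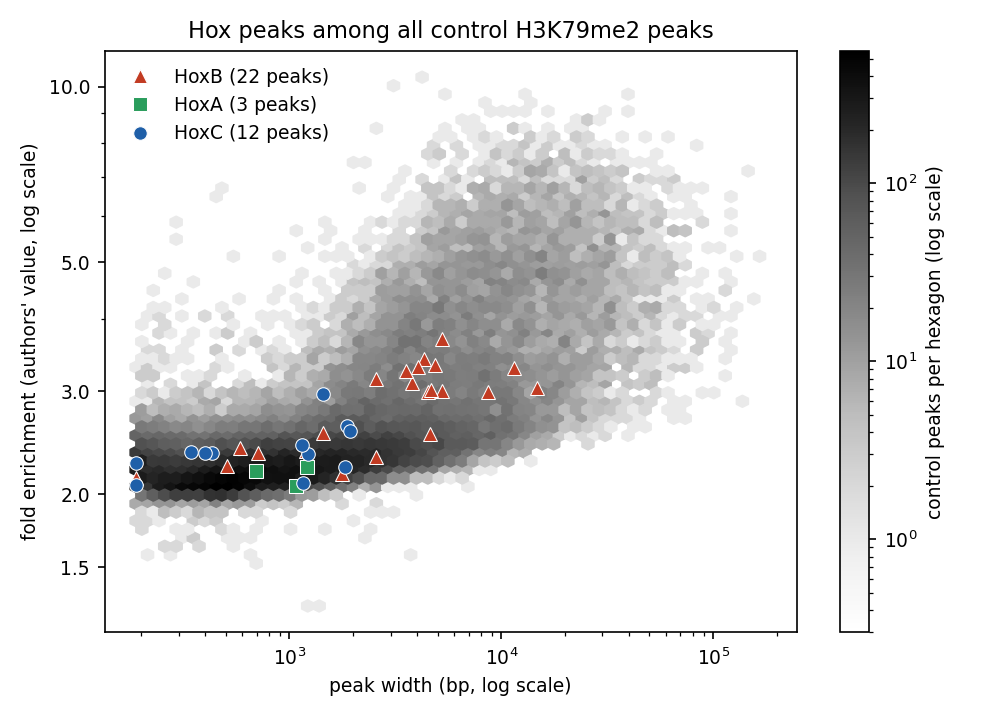
Peak width (bp, log scale) against fold enrichment (authors' value, log scale) for all 47774 control peaks (grey hexagons, darker with more peaks), with the peaks of HoxB, HoxA and HoxC marked. The 12 HoxC peaks reach at most 1938 bp and a fold of 2.97, among the mass of narrow peaks, while many HoxB peaks lie to the right of and above them.

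After EPZ5676 no HoxC gene, no stretch between HoxC genes and neither flank had a peak. Over all protein-coding genes 12.3% had an EPZ5676 peak, but of those within the members' lengths only 2.65% did, so 0 of 9 is near the background. Of the 25312 control peaks with a width and fold within the ranges of the HoxC peaks, 2.52% overlapped an EPZ5676 peak, against 6.48% of all control peaks. At the mean density of chromosome 15 (483 peaks), a stretch as long as the window would hold 1.00 EPZ5676 peak. The other 3 Hox clusters with their 50 kb flanks had 0 EPZ5676 peaks too. The absence of a peak at this unknown depth does not show that no H3K79me2 was left.

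Of the lists of genes whose proteins set Hox activity, the trithorax-type and Polycomb lists were marked throughout in the control. All 13 trithorax-type activators and partners of DOT1L had a control peak, against 52.7% of all protein-coding genes, and 4 had an EPZ5676 peak (Kmt2a, Wdr5, Dot1l and Mllt3), against 12.3%. That count became 0 when EPZ5676 peaks needed a −log10 q of at least 2, and 1 when at least 500 bp of the gene had to be covered by peaks at the deposited threshold. Control peaks covered 101183 bp at Mllt10 and 80317 bp at Mllt3, both genes of DOT1L partners, and 6389 bp at Wdr5 and 3415 bp at Men1, genes of KMT2 complexes. Dot1l was covered over 15445 bp in control cells and over 855 bp with EPZ5676. The median covered share of the 13 was 38.3%. The shares over all protein-coding genes are not matched for length. The 4 genes with an EPZ5676 peak were 21389 bp (Wdr5) to 263483 bp (Mllt3) long. Only 2.65% of the shorter genes, those within the HoxC members' lengths, had an EPZ5676 peak.

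All 15 Polycomb genes had a control peak too, against 52.7% of all protein-coding genes, with a median covered share of 40.6%. An EPZ5676 peak was found at 3 (Ezh2, Jarid2 and Rnf2), against 12.3%, or at 1 with a −log10 q of at least 2. These 3 genes were 31594 bp (Rnf2) to 190870 bp (Jarid2) long, and the shares over all genes are not matched for length. The longest control coverage was 155724 bp at Jarid2, a gene of a Polycomb accessory factor, and 33646 bp at Phc2. The shortest was 1298 bp at Ring1 and 2941 bp at Phc1, subunits of the complex that places ubiquitin on histone H2A. Coverage at Ezh2, the gene of the Polycomb methyltransferase, was 22648 bp in control cells and 1093 bp with EPZ5676.

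Of the 9 TALE genes, 5 had a control peak, close to the background of 52.7%, which is not matched for length. Their homeodomain proteins bind DNA together with Hox proteins. Pknox1 had a control peak alone (18093 bp). Pbx4 (1025 bp) and Pbx2 (910 bp) had the shortest coverage. Meis1, Meis2 and Meis3 had no peak in either list, and Pknox2 had 929 bp after EPZ5676 only. Cdx1, Cdx2 and Cdx4, caudal genes that act upstream of Hox genes in the embryo, had no peak, while Gmnn, the gene of geminin, had 3275 bp in the control.

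Marker genes of the cell types that the cultures could hold were marked as follows. The background over all protein-coding genes, not matched for length, was 52.7% in the control and 12.3% after EPZ5676. Of 18 genes of undifferentiated spermatogonia and germ cells, 16 had a control peak (all but Pax7 and Eomes) and 2 an EPZ5676 peak, with summed coverage of 484081 bp in control cells and 2330 bp with EPZ5676. Of 19 fibroblast genes, which stand for feeder cells, 11 had a control peak, near that background, and 6 an EPZ5676 peak, with 112004 and 14201 bp in sum. Col5a1, Twist2, Prrx1, Fbn1 and Sparc had a peak in both lists, and Fap had an EPZ5676 peak only. Col1a2, Col3a1, Vim, Postn, Lum, Dcn and S100a4 were without a peak in either list, and the remaining fibroblast genes had a control peak only. Of 15 genes of testis somatic cells, 5 had a control peak and 1 an EPZ5676 peak. Fibroblasts can express HoxC genes, and the part of feeder cells in the HoxC peaks was not tested.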

How the data were processed

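H3K79me2 and input chromatin were sequenced in 8 samples in 4 groups of 2, of which replicate 1 of each H3K79me2 group has a peak list. The build was mm10 and the tools included deepTools, Trimmomatic and bcl2fastq 2.20.0.422, per the submitters' processing notes. For the aligner, the peak caller, the use of the inputs and any pooling of replicates, nothing is given in the sources used here. Lists come without a header in 9 columns laid out as broad peaks. The score the authors deposited equals −log10 q times 10, rounded down, except in 4 control peaks. The deposited fold enrichment is a ratio of signal to background, and −log10 of the p-value and of the q-value, also deposited, are per peak. These values were used only to describe and filter peaks.

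Gene spans and starts came from RefSeq tables of GRCm38.p6, with all 9 members matched by symbol in the gene table and 1 (Hoxc4) in the promoter table. A gene counted as marked when peaks covered at least 1 bp of its span, and covered lengths are of the union of peaks. Python 3.11.15 with numpy 2.4.6 was used, and the coverage code was tested on simulated data. The lists hold 0 columns that could not be mapped to a sample. Named genes were the 9 members, all RefSeq genes of the window, other Hox genes with a peak, Dot1l, the 2 longest and 2 shortest covered genes of each partner list, and the 3 Hox genes nearest in covered share. Genes named outside this rule (list members with an EPZ5676 peak or with none, and the neighbours of the cluster) were chosen after their values were seen. Of the genes that the rule names, 2 are not reported here. The members and lists were chosen with earlier results of these data known. Alternatives were stricter q or p, 500 bp or 20% of the span, peaks of at least 500 bp, 2 kb added to spans, flanks of 25 and 100 kb, and joining of peaks under 1 kb apart.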

Additional observations from a re-analysis of the deposited data

How the results depend on the processing

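No paired analysis was possible because each condition has 1 peak list, and for the same reason no replicate could be left out. HoxC genes and the window with an EPZ5676 peak stayed at 0 in all alternatives tried. No setting could change this, as the nearest EPZ5676 peak lay 200.3 kb above the cluster, beyond the 100 kb flank. HoxC genes covered over 50% of the span, the Hoxc4 start under a peak and HoxD genes with a control peak also stayed at 0. For HoxD this too was fixed, as the cluster and its 50 kb flanks held 0 bp of control coverage. The Hoxc4 start lay in a gap of 31.2 kb between peaks, which joining under 1 kb could not close. Of the 10 HoxB genes, 9 or 10 were marked in each alternative. Control-marked HoxC genes were 5 as deposited, 2 at the p floor of the EPZ5676 list and 3 (Hoxc9, Hoxc10, Hoxc13) with at least 20% of the span covered. Control peaks in the window were 12, then 3 at the p floor and 7 with peaks of at least 500 bp. The bases covered, the same in window and cluster, were 12159, then 10812 with −log10 q of at least 2, 5257 at the p floor, 10608 with peaks of at least 500 bp and 13411 with joined peaks. Control-marked HoxA genes were 3, then 0 at a −log10 q of at least 2, 0 at the p floor and 0 with 20% of the span. The partner lists were run under the same alternatives after seeing the data. TALE genes went from 5 with a control peak to 3 at the p floor and 1 with 20% of the span, and from 2 with an EPZ5676 peak to 0 with 20% of the span and 1 with peaks of at least 500 bp. Trithorax-type genes went from 4 with an EPZ5676 peak to 0 at the q limit, 1 with 500 bp covered, 0 with 20% of the span and 1 with peaks of at least 500 bp. Polycomb genes went from 3 with an EPZ5676 peak to 1 at the q limit and 0 with 20% of the span. Marker lists were run likewise. Fibroblast genes went from 11 with a control peak to 5 at the p floor and 4 with 20% of the span, and from 6 with an EPZ5676 peak to 3 at the q limit and 0 with 20% of the span. Spermatogonial genes went from 2 with an EPZ5676 peak to 0 at the q limit and 0 with 20% of the span. Testis somatic genes went from 5 with a control peak to 2 at the q limit, 1 at the p floor and 0 with 20% of the span, and from 1 with an EPZ5676 peak to 3 with 2 kb added and 0 at the q limit, with 500 bp covered, with 20% of the span and with peaks of at least 500 bp. Stricter limits keep fewer peaks by construction. Unknown read depth limits any reading of a missing peak.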

Other observations

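The HoxC cluster lay inside a long stretch of chromosome 15 without an EPZ5676 peak, although control peaks were dense in it. The stretch ran for 1368 kb (101868673 to 103237161), from an EPZ5676 peak in Krt77, a keratin gene, to one in Cbx5, which encodes the heterochromatin protein HP1 alpha. Of 482 stretches between neighbouring EPZ5676 peaks on this chromosome it was number 18 in length, and their median length was 22.9 kb. Control peaks inside it numbered 72 and covered 19.8% of it, against 7.00% of the chromosome. Of the 41 protein-coding genes wholly inside it, 27 had a control peak, where 52.7% of all protein-coding genes had one. At the density of the chromosome a stretch of this length would hold 6.36 EPZ5676 peaks. It was picked because the cluster lies in it, and no test was made.

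The nearest protein-coding neighbours of the cluster, 3 below and 4 above, were covered to a wide range of extents in the control. Calcoco1, a coactivator gene 199.0 kb below Hoxc13, had 1867 bp covered, or 12.1% of its span, and Atp5g2, which encodes a subunit of ATP synthase, had 53.9%. Atf7, a transcription factor gene, had 46.0% with a highest fold of 5.01. On the other side, Smug1 had 22.8%, Cbx5 76.3% with a highest fold of 5.22, Hnrnpa1, an RNA-binding protein gene, 37.7%, and Nfe2, the gene of an erythroid transcription factor, 0%. Cbx5 was the only one of these 7 genes with an EPZ5676 peak (584 bp). The covered share of Cbx5 exceeded that of every HoxC gene, and it lay 154.7 kb from Hoxc4.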
